A study of Caenorhabditis elegans with 24 samples.

Results

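Association of wild-type BAF-1 with the genome was compared between the hypodermis and the intestine of *C. elegans* larvae by DNA adenine methyltransferase identification (DamID). The comparison took every wild-type library, 12 of the 24 in the series, in 4 groups of 3: Dam::BAF-1 and GFP::Dam in the hypodermis, and Dam::BAF-1 and GFP::Dam in the intestine. Each fusion library and its control gave a single column of log2(Dam::BAF-1/GFP::Dam), so that 3 hypodermis columns were set against 3 intestine columns. The columns cover 46374 genes and 50139 bins of 2 kb. The question was where along the chromosomes, and at which genes, BAF-1 occupancy differs between these cell types.

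BAF-1 is a small protein that binds double-stranded DNA without regard to its sequence and bridges chromatin to the LEM domain proteins and lamin of the nuclear envelope. In worm nuclei the arms of the autosomes lie close to the envelope and are rich in repeats and repressed genes, whereas the centres hold most of the widely expressed genes. The hypodermis is the epithelium that secretes and moults the cuticle. The intestine digests food, stores fat and makes yolk. In DamID, the bacterial methyltransferase Dam methylates the adenine of GATC wherever the fused protein brings it, and GFP::Dam records how accessible each site is.

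All animals were wild type for baf-1, and were collected at the L4 stage after 48 h at 20 °C on *E. coli* GM119, and 400 ng of genomic DNA from 4000 animals entered each reaction with 22 PCR cycles. The hypodermis groups were strains BN1047 (Dam::BAF-1) and BN561 (GFP::Dam), in which FLP recombinase under the dpy-7 promoter removes a cassette with mCh::his-58 that is flanked by FRT sites. The intestine groups were BN1052 (Dam::BAF-1) and BN1051 (GFP::Dam), with FLP under the nhx-2 promoter. In every strain the Dam protein was expressed from the hsp16.41 promoter at a single-copy insertion on chromosome II, and each group is represented by 1 strain. The DNA came from whole larvae, so the tissue of a ratio rests on the FLP driver alone. An occupancy ratio is not an expression level, and the marker genes of each tissue can therefore be described but do not check the label. A ratio changes with its numerator and with its denominator. Whether a tissue difference lies in Dam::BAF-1 or in GFP::Dam cannot be told apart here, and strain and tissue cannot be told apart either. The study describes its replicates as biological ones, and the labels do not say which steps were separate, so p-values measure the spread between these samples.

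Ratios were given for a gene together with 500 bp on either side. In each column the features without reads share a single value, the most frequent one of that column. A gene or bin was tested where none of the 6 columns held its own such value. This left 25818 genes (15977 of them protein-coding) and 32322 bins. Each column was then centred on its median over those features, and 0 therefore stands for the typical tested gene or bin. Relative to that median over genes, the value of features without reads was 0.06, -0.82 and -2.15 in the hypodermis columns. In the intestine columns it was -0.25, 3.50 and 0.07. These offsets differ between columns, and their effect on tested features with few reads was not tested. "Difference" below means the hypodermis mean minus the intestine mean of these log2 ratios, with its standard error from limma, and genes pass at an adjusted p below 0.05. Across tested genes, Pearson's r was 0.69 to 0.78 among hypodermis columns, 0.73 to 0.90 among intestine columns and 0.46 to 0.65 between tissues. The SD of a column ran from 1.66 (intestine replicate 1) to 2.68 (intestine replicate 3). The ratio tables carry no counts, and the read totals that the study tabulates for its libraries are not used here, so no counting interval is given. The number of GATC sites moved with the result: the median difference rose from -0.91 over genes with 1 or 2 sites to 0.34 over genes with more than 20. Among protein-coding genes alone it rose from -0.27 to 0.35. Counts of the main lists are given also with that trend removed and for genes with at least 5 sites, beside those with the deposited centring, which changes the zero of every column.

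The sites that the assay can read differ from gene to gene, as the 300 bases before the annotated start of 4 genes show. They are shown because nlp-31 and eff-1 had high ratios in the intestine, and asp-15 and act-5 in the hypodermis. Sequences are from the WBcel235 (ce11) assembly, written 5′ to 3′ on the strand of the gene, with each GATC in capitals.
nlp-31 (chrV:3979755-3980054, forward strand): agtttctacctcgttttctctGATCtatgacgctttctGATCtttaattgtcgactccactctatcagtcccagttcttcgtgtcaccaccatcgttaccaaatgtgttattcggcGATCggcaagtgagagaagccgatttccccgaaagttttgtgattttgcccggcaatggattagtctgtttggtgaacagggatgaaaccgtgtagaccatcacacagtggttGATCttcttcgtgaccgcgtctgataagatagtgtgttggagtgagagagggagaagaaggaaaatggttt
eff-1 (chrII:8346384-8346683, forward strand): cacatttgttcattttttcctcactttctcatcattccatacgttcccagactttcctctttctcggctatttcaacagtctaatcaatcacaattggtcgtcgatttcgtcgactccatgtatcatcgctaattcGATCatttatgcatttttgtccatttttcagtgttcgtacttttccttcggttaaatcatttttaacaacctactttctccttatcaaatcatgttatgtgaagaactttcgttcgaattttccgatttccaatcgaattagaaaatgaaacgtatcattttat
asp-15 (chrV:19044854-19045153, reverse strand): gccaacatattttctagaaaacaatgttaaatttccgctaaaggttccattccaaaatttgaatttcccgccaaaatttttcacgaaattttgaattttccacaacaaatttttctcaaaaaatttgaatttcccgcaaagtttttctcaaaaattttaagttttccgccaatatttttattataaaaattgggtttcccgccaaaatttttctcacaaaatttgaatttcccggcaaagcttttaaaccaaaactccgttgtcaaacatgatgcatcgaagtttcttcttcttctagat
act-5 (chrIII:13606067-13606366, reverse strand): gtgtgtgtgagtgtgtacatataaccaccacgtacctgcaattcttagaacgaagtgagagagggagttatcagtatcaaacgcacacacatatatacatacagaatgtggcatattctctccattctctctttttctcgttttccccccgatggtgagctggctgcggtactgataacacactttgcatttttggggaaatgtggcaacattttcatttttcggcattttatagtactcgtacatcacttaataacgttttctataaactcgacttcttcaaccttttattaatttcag
The stretch before nlp-31 holds 4 sites, that of eff-1 holds 1, and those of asp-15 and act-5 hold 0 and 0. GATC reads the same on both strands. Of the 19889 such stretches before protein-coding genes, 44.4% hold at least 1 GATC and 14.3% hold 2 or more. Over their whole windows with the flanks, nlp-31 has 7 sites, eff-1 14, asp-15 9 and act-5 16, and these are the sites from which their ratios were made.

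limma found a different BAF-1 ratio between the tissues at 2618 of 25818 genes (10.1%). Of these, 1054 (4.08% of all tested) had the higher ratio in the hypodermis and 1564 (6.06%) the higher ratio in the intestine. Called differences began at 2.30 in the hypodermis direction and at -2.35 in the intestine direction, and no smaller one passed in this fit. The smallest difference that 3 columns against 3 could detect was not tested. Among protein-coding genes the order was the other way round, where 8.98% passed, 812 (5.08%) higher in the hypodermis and 622 (3.89%) higher in the intestine. The gene lists below are sets or families that encode proteins. For them these 2 shares are the closer comparison, also where only the shares of all genes are printed beside their counts. Of the 1564, 739 were above 0 in every intestine column and below 0 in every hypodermis column, and 600 of the 1054 showed the reverse. Here 0 is the column median, and called genes have large differences by selection. These counts are given for called genes and this centring only, so they are a description. With the deposited centring, which raised the median difference of all tested genes from -0.13 to 0.64, the calls were 2970 and 671, and with no filter they were 1511 and 540. Single columns weighed on the counts. Without intestine replicate 3 no gene passed in limma, although 2358 and 2859 had an unadjusted p below 0.05, and the calls were 194 and 505 without hypodermis replicate 2 and 397 and 699 without intestine replicate 2. Every gene call below is therefore lost without intestine replicate 3. Without hypodermis replicate 1 they were 654 and 1234, and without either of the other columns 1020 to 1332 and 1529 to 2074.

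Genes named here were chosen by rank and by list. The 10 with the smallest p-values in the intestine direction, taken at least 10 kb apart, were 7 protein-coding and 3 non-coding genes. nlp-31 on chromosome V encodes an antimicrobial peptide of the epidermis. Its ratios were -3.36, -2.82 and -2.97 in the hypodermis against 2.79, 2.16 and 3.15 in the intestine, a difference of -5.75 ± 0.73 (adjusted p = 0.00238). gpa-12 on X encodes the G protein alpha subunit of the G12 class, which acts in the epidermis upstream of such peptides. It measured -4.94, -2.67 and -2.77 in the hypodermis against 2.56, 1.79 and 2.48 in the intestine (-5.73 ± 0.81, adjusted p = 0.00271). In both genes every intestine column lay above every hypodermis column by more than 4 log2 units. ceh-13, the labial-class Hox gene on III, had -2.64, -3.46 and -3.73 against 1.34, 2.35 and 2.17 (-5.23 ± 0.75, adjusted p = 0.00271). The nematode-specific peptide gene nspe-8 on II had -3.17, -1.73 and -2.09 against 3.17, 2.70 and 3.82 (-5.56 ± 0.76). The uncharacterised protein-coding genes F08F3.4, T19C4.24 and C55C3.73 differed by -6.10 ± 0.78, -5.79 ± 0.77 and -6.01 ± 0.83. The last 3 of the 10 were non-coding genes with 1 or 2 GATC sites each, F01E11.13 (-6.19 ± 0.78) and W03G11.20 (-6.06 ± 0.85) on X, and the piRNA gene 21ur-1521 on IV (-6.03 ± 0.81).

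In the hypodermis direction the ranking was led by W04A8.6 on I, with ratios of 5.23, 5.41 and 5.65 in the hypodermis against 0.75, 0.24 and 1.34 in the intestine (4.65 ± 0.73, adjusted p = 0.00349). It was above 0 in all 6 columns and differed in degree. asp-15 on V, an aspartyl protease gene of the cathepsin family, had 2.83, 3.64 and 0.95 against -1.37, -2.57 and -2.76 (4.71 ± 0.83, adjusted p = 0.0054) and so lay on opposite sides of 0. klo-2 on III, related to the klotho glycosidases, had 3.97, 3.46 and 2.48 against -0.46, -0.82 and -1.94 (4.38 ± 0.77). B0281.3 on II differed by 4.88 ± 0.87, the highest of the 10, and its hypodermis columns spread from 2.06 to 4.40. Other members were C24B9.3 (4.73 ± 0.80), Y53G8AM.4 (4.28 ± 0.73), Y53G8AR.8 (4.37 ± 0.79), C48B4.9 (4.10 ± 0.75), K11H12.4 (4.36 ± 0.81) and the pseudogene WBGene00007578 (4.19 ± 0.74). Of these 10 genes, 5 lie on III.

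**Figure D1:**
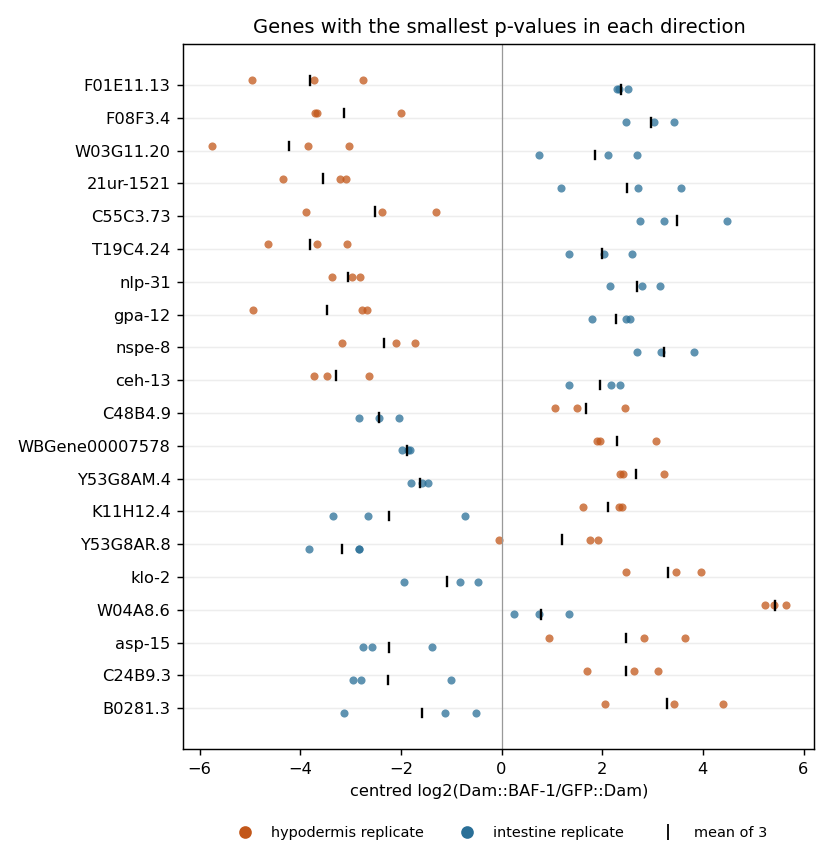
Centred log2(Dam::BAF-1/GFP::Dam) of the 20 genes with the smallest p-values, 10 in each direction. Each point is a replicate column, short black lines are means of 3, and the x axis is in log2 units. The genes were selected for small p-values, and in each of them the hypodermis and intestine columns occupy separate ranges.

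Genes that build the hypodermis and its cuticle contacts had mostly negative differences. Of 24 listed regulators, matrix and attachment genes, 23 had a negative difference, 8 passed in the intestine direction and 0 in the other, where the shares over all genes were 6.06% and 4.08%. Their median difference was -1.99, against -0.13 over all tested genes. The median ratio of the list was -2.25, -1.83 and -1.34 in the hypodermis columns and -0.13, 0.79 and 1.09 in the intestine columns, ranges that did not overlap. nekl-3, a NIMA-related kinase needed for moulting, had -2.94, -2.86 and -2.02 in the hypodermis against 1.34, 1.66 and 2.33 in the intestine (-4.38 ± 0.74, adjusted p = 0.00432). eff-1, which encodes the protein that fuses epidermal cells, had -2.39, -2.84 and -1.72 against 1.15, 1.79 and 2.11 (-4.0 ± 0.74, adjusted p = 0.00637). mup-4, which links the epidermis to the cuticle, measured -2.61, -3.16 and -2.46 against 0.51, 0.33 and 1.42 (-3.50 ± 0.74). All 3 were below the column median in every hypodermis column and above it in every intestine column.

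The nuclear receptor genes nhr-25 and nhr-23, both regulators of moulting, differed by -3.20 ± 0.75 and -2.47 ± 0.72 (adjusted p = 0.0158 and 0.0386). nhr-23 was below 0 in all 6 columns, at -3.48, -2.86 and -3.48 in the hypodermis against -0.78, -0.89 and -0.74 in the intestine. The genes of secreted matrix proteins noah-2, lpr-3 and let-653 differed by -2.97 ± 0.73, -2.79 ± 0.79 and -2.82 ± 0.83. The calls of nhr-23, let-653 and lpr-3 were lost under 6 or more of the 16 alternatives. elt-3, the GATA factor of the hypodermis, did not pass (-0.84 ± 0.76, adjusted p = 0.495) and was at -2.97, -3.58 and -2.24 in the hypodermis against -1.38, -2.43 and -2.47 in the intestine. mua-6, an intermediate filament gene of the epidermis, had -1.53 ± 0.76 (adjusted p = 0.198). The one member with a positive difference was col-19, an adult collagen gene, with 3.70, 2.35 and 1.55 in the hypodermis against -1.12, 1.04 and 1.23 in the intestine (adjusted p = 0.109, or 0.043 with the GATC trend removed). X holds 8 of the 24 genes, and on the autosomes alone the median difference was -2.17. The 100 kb windows around the members had a median difference of -0.78, smaller in size than that of the genes. With the GATC trend removed the list's median was -2.41. For this list the calls in the hypodermis and intestine directions were 1 and 3 with the deposited centring, 1 and 12 with the GATC trend removed and 0 and 12 among members with at least 5 sites.

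The antimicrobial peptide genes of the epidermis, which are induced by wounding and fungal infection, had the lowest median of the 30 lists. All 13 tested members of 17 had negative differences and 8 passed (61.5%, beside 6.06% of all genes in the intestine direction). The median was -3.0. Besides nlp-31, nlp-33 had -4.80, -3.29 and -2.90 in the hypodermis against 1.21, 2.06 and 2.22 in the intestine (-5.49 ± 0.78, adjusted p = 0.00271), and nlp-29 had -2.53, -2.60 and -1.83 against 1.34, 1.70 and 3.30 (-4.43 ± 0.78). nlp-27 and nlp-30 differed by -5.13 ± 0.77 and -5.18 ± 0.80. The smallest difference was that of cnc-6 on III (-1.04 ± 0.82, adjusted p = 0.43). Of the 13, 11 lie on V, where nlp-27 to nlp-31 and nlp-34 are neighbours whose extended windows can share reads, so these members are not independent of each other. Among the peptides the calls in the hypodermis and intestine directions were 0 and 6 with the deposited centring, 0 and 6 with the GATC trend removed and 0 and 4 among members with at least 5 sites.

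Cuticle genes were divided. Of 17 collagens with body shape or blister phenotypes, 3 passed in the intestine direction (17.6%) and 0 in the other, with a median difference of -1.45. They were sqt-1 (-3.52 ± 0.80), bli-1 (-3.20 ± 0.76) and dpy-7 (-3.27 ± 0.78, adjusted p = 0.0169). dpy-7 had -1.69, -3.59 and -2.18 in the hypodermis against 0.52, 0.51 and 1.31 in the intestine, and its promoter is also present in the FLP transgene of both hypodermis strains. rol-6 differed by -1.98 ± 0.91 (adjusted p = 0.162), with one intestine column at -3.91, and dpy-10 by 1.32 ± 0.76 (adjusted p = 0.266). Among 140 col genes, 8 passed in the hypodermis direction (5.71%, beside 4.08% of all genes and 5.08% of protein-coding genes). In the intestine direction 15 passed (10.7%, beside 6.06% and 3.89%). Their median was 0.33. col-92 had -4.26, -1.83 and -0.81 in the hypodermis against 1.75, 2.11 and 3.62 in the intestine (-4.79 ± 0.91, adjusted p = 0.00737). col-84 showed the opposite, 3.21, 2.37 and 0.56 against -2.98, -2.0 and -0.75 (3.96 ± 0.86, adjusted p = 0.0127). For the col genes the calls in the hypodermis and intestine directions were 29 and 9 with the deposited centring, 8 and 15 with the GATC trend removed and 8 and 17 among members with at least 5 sites. Called collagens were found in both directions under each of these, with the order of the counts reversed under the deposited centring. The named body collagens gave 0 and 2, 0 and 4 and 0 and 5 in the same 3 alternatives.

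The hedgehog-related genes encode secreted proteins, many of them epidermal. Of 55 tested, 9 passed in the intestine direction (16.4%, beside 6.06% of all genes) and 2 in the hypodermis direction (3.64%, beside 4.08%). In this family the calls in the hypodermis and intestine directions were 6 and 3 with the deposited centring, 2 and 12 with the GATC trend removed and 1 and 13 among members with at least 5 sites. Their median of -0.52 became 0.25 with the deposited centring, where that of all genes was 0.64. On X, 5 of 9 members passed, with a median of -2.72, and on the autosomes the median was -0.21. grd-14 and grd-4 differed by -4.34 ± 0.78 and -4.16 ± 0.75 and hog-1 by -3.71 ± 0.84, all on X. grd-14 was at -4.12, -2.99 and -2.34 in the hypodermis against 0.85, 0.75 and 1.95 in the intestine. grd-15 on I went the other way, with 1.71, 2.06 and 2.31 in the hypodermis against -0.99, -0.72 and -1.63 in the intestine (3.14 ± 0.73, adjusted p = 0.0158).

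Genes of the intestine lay mostly on the positive side. Of 21 tested members, 20 had a positive difference, 2 passed in the hypodermis direction (9.52%, beside 4.08% of all genes) and 0 in the other, and the median was 1.15. The list's median ratio was 0.33, 0.39 and -1.41 in the hypodermis columns and -1.25, -2.17 and -2.88 in the intestine columns, so that hypodermis replicate 3 lay within the intestine range. act-5, the actin of the brush border microvilli, had 2.10, 3.76 and -0.52 in the hypodermis against -1.26, -1.21 and -3.13 in the intestine (3.64 ± 0.98, adjusted p = 0.0278). asp-1, an aspartyl protease, had 1.11, 1.23 and -1.41 against -2.15, -1.99 and -3.94 (3.01 ± 0.88, adjusted p = 0.0383). Both calls were lost with columns on a common scale (adjusted p = 0.051 and 0.059), with the GATC trend removed (0.057 and 0.075) and without hypodermis replicate 1 or 2. elt-2, the GATA factor that maintains the intestine, differed by 0.86 ± 0.79 (adjusted p = 0.498) and the esterase gene ges-1 by 0.87 ± 0.73 (adjusted p = 0.464). nhx-2, whose promoter drives FLP in the intestine strains, had -1.40, -2.01 and -2.41 against -0.90, -1.48 and -3.52, a difference of 0.029 ± 0.82, and dod-3 had 0.90 ± 0.90 (adjusted p = 0.54). The lowest difference was that of glo-3 (-0.34 ± 1.09, adjusted p = 0.87), a gut granule gene. None of elt-2, ges-1, nhx-2, dod-3 and glo-3 passed. Over the intestinal list the calls in the hypodermis and intestine directions were 5 and 0 with the deposited centring, 0 and 0 with the GATC trend removed and 2 and 0 among members with at least 5 sites.

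No vitellogenin gene passed, out of 6, and 5 had positive differences. These genes encode yolk proteins and are expressed mainly in adults. vit-3 had 1.11, 2.97 and 0.78 in the hypodermis against -1.59, -0.74 and -0.29 in the intestine (2.49 ± 0.81, adjusted p = 0.0557). The others were vit-1 (0.80 ± 0.83), vit-2 (-0.096 ± 0.79), vit-4 (1.59 ± 0.75), vit-5 (1.34 ± 0.80) and vit-6 (1.60 ± 0.83). vit-3 and vit-4, like other members of the family, are near-identical copies that can share reads, so their values are uncertain.

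Families with roles in digestion and defence were also counted. Of 27 cathepsin-like proteases, 5 passed in the hypodermis direction (18.5%, beside 4.08% of all genes) and 0 in the other, with a median of 1.11. No protease passed in the intestine direction with the deposited centring, the trend removed or at least 5 sites either, where 13, 4 and 5 passed in the hypodermis direction. asp-15, asp-16 and asp-17 passed, as did cpr-3 and asp-1, all on the right arm of V. Of the 27 tested members, 21 lie on V. Bins of 2 kb called around asp-15 reached from -6.15 to 7.85 kb of its start, so members close to each other are not independent. asp-17 had 2.85, 2.42 and 1.32 in the hypodermis against -0.30, -1.68 and -2.74 in the intestine (3.77 ± 0.82), asp-16 differed by 3.68 ± 0.87 and cpr-3 by 3.53 ± 0.82. Over the list the hypodermis columns had medians of 0.24, 0.77 and -1.39 and the intestine columns -1.45, -2.42 and -2.74, so that hypodermis replicate 3 was close to intestine replicate 1. Among 16 lysozyme genes, 2 passed in the hypodermis direction (12.5%), lys-6 (2.88 ± 0.77) and ilys-6 (2.58 ± 0.75), and 0 in the other. The latter call was lost under 6 alternatives.

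C-type lectins, many of which respond to microbes, had 19 of 206 tested members higher in the hypodermis (9.22%) and 4 higher in the intestine (1.94%). The median was 0.53, and the column medians were 1.86, 1.89 and 1.44 in the hypodermis against 0.54, 0.95 and 1.37 in the intestine, all above 0 and without overlap between the tissues. clec-62 and clec-63, neighbours on II, differed by 3.93 ± 0.80 and 3.91 ± 0.77, and clec-62 went from -1.09, -2.09 and -2.80 in the intestine to 2.10, 2.80 and 0.92 in the hypodermis. clec-223 on V differed by -3.28 ± 0.83. The called members clec-67, clec-68, clec-71, clec-72, clec-73 and clec-78 lie in a single 100 kb window on IV. Members close to each other are thus not independent, and the counts may reflect few loci. Over all lectins the calls in the hypodermis and intestine directions were 43 and 0 with the deposited centring, 12 and 4 with the GATC trend removed and 17 and 12 among members with at least 5 sites. Among lectins with at least 5 sites the counts were thus closer to each other. Of the xenobiotic enzymes, 2 of 55 UDP-glucuronosyltransferases passed in the hypodermis direction (3.64%), led by ugt-48 (3.16 ± 0.78). In the same direction 2 of 36 glutathione S-transferases passed (5.56%). Cytochromes P450 had 2 of 66 in each direction (3.03%), among them cyp-33C12 (3.85 ± 0.76) and cyp-33B1 (-3.45 ± 0.81), both on V. The shares of these 3 enzyme families in the hypodermis direction were below or close to the 4.08% of all genes and the 5.08% of protein-coding genes.

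**Figure D2:**
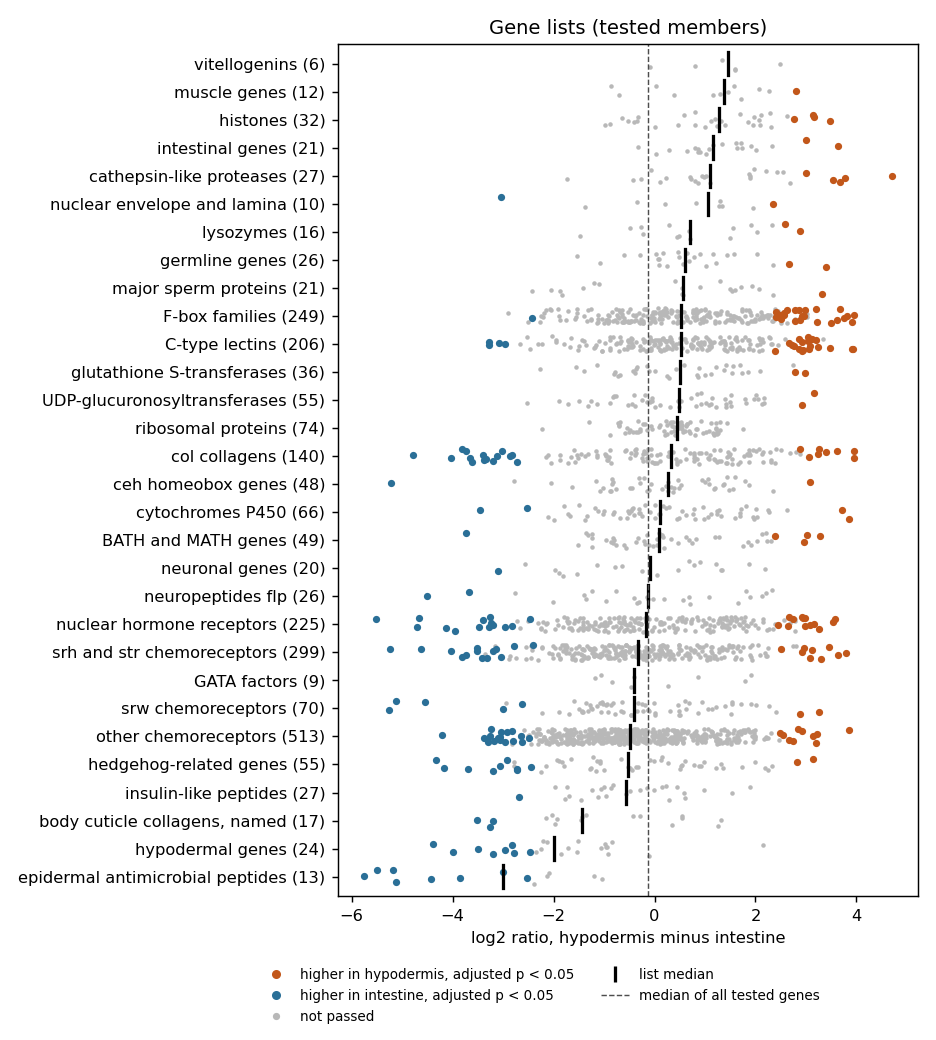
Difference (hypodermis minus intestine, log2 units) of every tested member of 30 gene lists, ordered by list median, with the number tested in parentheses. Epidermal antimicrobial peptides have the lowest median (-3.0) and vitellogenins the highest (1.47), while the median of all tested genes is -0.13.

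Genes of the nuclear envelope, where BAF-1 resides, were also read. baf-1 itself had -0.85, 2.40 and 0.69 in the hypodermis against 4.64, 3.62 and 3.11 in the intestine (-3.04 ± 0.87, adjusted p = 0.0354). The Dam::BAF-1 strains carry a further copy of baf-1 in the construct, whose reads cannot be told apart from the gene's own, and the call was lost under 9 of 16 alternatives. unc-84, a SUN domain protein of the inner membrane, had 1.14, 0.87 and 0.046 against -1.56, -1.81 and -1.61 (2.35 ± 0.73, adjusted p = 0.0499), a call lost under 12 alternatives, among them the removal of the GATC trend (adjusted p = 0.14). lmn-1, the only lamin gene, differed by 1.29 ± 0.82 (adjusted p = 0.319). The LEM domain genes emr-1 and lem-2 differed by -1.37 ± 0.84 and 1.29 ± 0.82 (adjusted p = 0.298 and 0.313), and none of lmn-1, emr-1 and lem-2 passed.

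The F-box genes are an expanded family of ubiquitin ligase adaptors. Of 249 tested members, 23 were higher in the hypodermis (9.24%, beside 4.08% of all genes) and 1 higher in the intestine (0.40%, beside 6.06%). Their ratios were high in both tissues, with column medians of 1.38, 1.86 and 1.92 in the hypodermis against 0.75, 1.18 and 1.86 in the intestine, ranges that overlap. fbxa-19 had 1.94, 2.45 and 2.41 against -0.72, -1.95 and -2.36 (3.94 ± 0.76, adjusted p = 0.00756). It lies on the left arm of III, and 48 tested F-box genes are on that chromosome and 96 on II. The called members fbxa-15, fbxa-79 and fbxa-80 lie in the same 100 kb window as fbxa-19, so members close to each other are not independent. For the F-box genes the calls in the hypodermis and intestine directions were 62 and 0 with the deposited centring, 18 and 1 with the GATC trend removed and 17 and 10 among members with at least 5 sites. The near absence of calls in the intestine direction was thus not seen with at least 5 sites. Of the related BATH and MATH adaptors, 4 of 49 passed in the hypodermis direction (8.16%) and 1, bath-38 (-3.75 ± 0.77), in the other.

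Chemoreceptor genes, which act in sensory neurons, had high ratios in both. Column medians over 299 srh and str genes were 1.56, 1.77 and 1.78 in the hypodermis against 1.60, 2.13 and 3.07 in the intestine, with 9 and 14 calls in the hypodermis and intestine directions (3.01% and 4.68%). srh-17 had the lowest difference (-5.24 ± 0.91). For 70 srw genes the calls were 2 and 5 (2.86% and 7.14%). srw-143 reached 2.75, 8.59 and 8.31 in the intestine against 0.47, 2.10 and 1.27 in the hypodermis (-5.27 ± 1.18). Over 513 further receptors the calls were 10 and 17 (1.95% and 3.31%). The 3 medians, -0.33, -0.40 and -0.48, turned positive with the deposited centring (0.44, 0.37 and 0.29) but stayed below the 0.64 of all genes. The counts turned as well: for srh and str genes they were 23 and 7 with the deposited centring, 8 and 19 with the trend removed and 6 and 25 with at least 5 sites. For srw genes they were 5 and 3, 2 and 5 and 0 and 4, and for the further receptors 32 and 1, 5 and 19 and 7 and 41. Of 225 nuclear hormone receptors, 13 were higher in the hypodermis (5.78%) and 14 higher in the intestine (6.22%). The shares in these directions were 4.08% and 6.06% over all genes, and 5.08% and 3.89% over protein-coding genes. Among these receptors the calls in the hypodermis and intestine directions were 33 and 6 with the deposited centring, 8 and 18 with the GATC trend removed and 13 and 20 among members with at least 5 sites. nhr-147 on V had -3.19, -0.70 and -1.18 in the hypodermis against 3.84, 3.21 and 4.46 in the intestine (-5.53 ± 0.82), and nhr-6 on III had 2.37, 3.24 and 1.04 against -0.86, -1.52 and -1.67 (3.57 ± 0.79).

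Ribosomal protein genes are used in every cell. No member of 74 passed in limma, and 1 had an unadjusted p below 0.05. The list median was below 0 in every column, at -2.18, -2.60 and -3.18 in the hypodermis against -1.83, -3.09 and -4.08 in the intestine. Differences of the members ran from -2.22 (rpl-42) to 1.75 (rpl-7). rpl-42 was above 0 in the intestine columns, at 0.60, 1.11 and 0.17.

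The largest classes of non-coding gene, piRNA and ncRNA, were called mostly in the intestine direction. The piRNA genes encode small RNAs of the germ line and sit mostly on chromosome IV. Only 3234 of 15351 could be tested, where 15977 of 19889 protein-coding genes were. Of the tested piRNA genes, 373 (11.5%) were higher in the intestine and 66 (2.04%) higher in the hypodermis, with a median difference of -1.20. Genes annotated as ncRNA had 489 (11.6%) and 65 (1.55%) of 4201, and tRNA genes 10 (3.00%) and 4 (1.20%) of 333, both below the shares of all genes. The same order, which is also that of all genes, was seen with few calls in smaller classes. There were 10 (9.43%) and 6 (5.66%) of 106 lincRNA genes. Of 144 miRNA genes there were 6 (4.17%) and 3 (2.08%), both below the shares of all genes, with a median difference of -0.016. The snoRNA genes had 6 (2.59%) and 4 (1.72%) of 232, with a median difference of 0.16. Over all genes the shares were 6.06% and 4.08%. The order was not seen in antisense RNA genes (2 and 4 of 69) and snRNA genes (3 and 3 of 74). The tested piRNA genes had a median of 3 GATC sites and the protein-coding genes 10, and overlapping windows of piRNA genes share reads. Over all genes with 1 or 2 sites, 10.1% were higher in the intestine and 1.89% higher in the hypodermis. Pseudogenes leaned the other way, with 84 (6.05%) higher in the hypodermis and 37 (2.67%) higher in the intestine of 1388 tested.

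The chromosomes did not contribute alike to these calls. On X, 160 of 2194 tested protein-coding genes (7.29%) were higher in the intestine and 31 (1.41%) higher in the hypodermis. On III the numbers were 47 (2.16%) and 168 (7.71%) of 2178, on IV 60 (2.36%) and 185 (7.27%) of 2544, and on I 44 (1.82%) and 161 (6.67%) of 2413. Calls on II (120 and 117) and V (191 and 150) were more even. Over all protein-coding genes the shares were 3.89% and 5.08%.

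The mean ratio of 2 kb bins was then taken per column for each chromosome and region, giving 28 values compared by exact permutation of the 6 columns, for which the smallest possible p is 0.1 (0.22 after adjustment over the 28). Every region below that is said not to overlap had that p. On X beyond its first 4 Mb (4455 bins) the means were -0.92, -1.34 and -1.07 in the hypodermis against -0.38, -0.40 and -0.40 in the intestine, a difference of -0.71. The intestine columns were within 0.03 of each other there, and all 3 lay above the hypodermis columns. In the first 4 Mb of X the ranges overlapped (0.26 ± 0.24 and 0.40 ± 0.27, SD, n = 3). The centre of II had -1.83, -1.91 and -1.87 in the hypodermis against -0.80, -1.16 and -1.56 in the intestine (-0.70), again without overlap. Taken against the other autosomal centres within each column, the centre of II was -0.78, -0.91 and -0.98 in the hypodermis against -0.15, -0.15 and -0.29 in the intestine. The insertion that carries the Dam construct is on II in all 4 strains.

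Of the 10 autosome arms, 4 were higher in the hypodermis without overlap. The left arm of III had 1.14, 0.97 and 0.80 in the hypodermis against 0.065, 0.34 and 0.28 in the intestine (0.74), and its right arm 1.21, 0.96 and 0.77 against 0.31, 0.60 and 0.70 (0.45). The left arms of I and IV differed by 0.51 and 0.33, also without overlap. In the other 6 arms the ranges overlapped, with differences of 0.091 and 0.14 in the arms of II, -0.19 and 0.071 in the left and right arms of V, 0.071 in the right arm of I and -0.12 in the right arm of IV. The left arm of V and the right arm of IV thus had the sign of X and the centre of II. The ranges overlapped further, in the centres of I, III, IV and V. Arms minus centres over all autosomes gave 2.38, 2.22 and 1.94 in the hypodermis against 1.22, 1.87 and 2.46 in the intestine (exact p = 0.6). The spread of the intestine columns in that contrast exceeded the difference between tissues. With the deposited centring the columns of the tissues overlapped in the centre of II (-0.30, exact p = 0.6) and in X beyond 4 Mb (-0.32, exact p = 0.2), while the left arm of III differed by 1.14 (exact p = 0.1). The contrast of II with the other centres (-0.69) and that of X with the autosomes (-0.61) are within a column and do not depend on the centring.

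**Figure D3:**
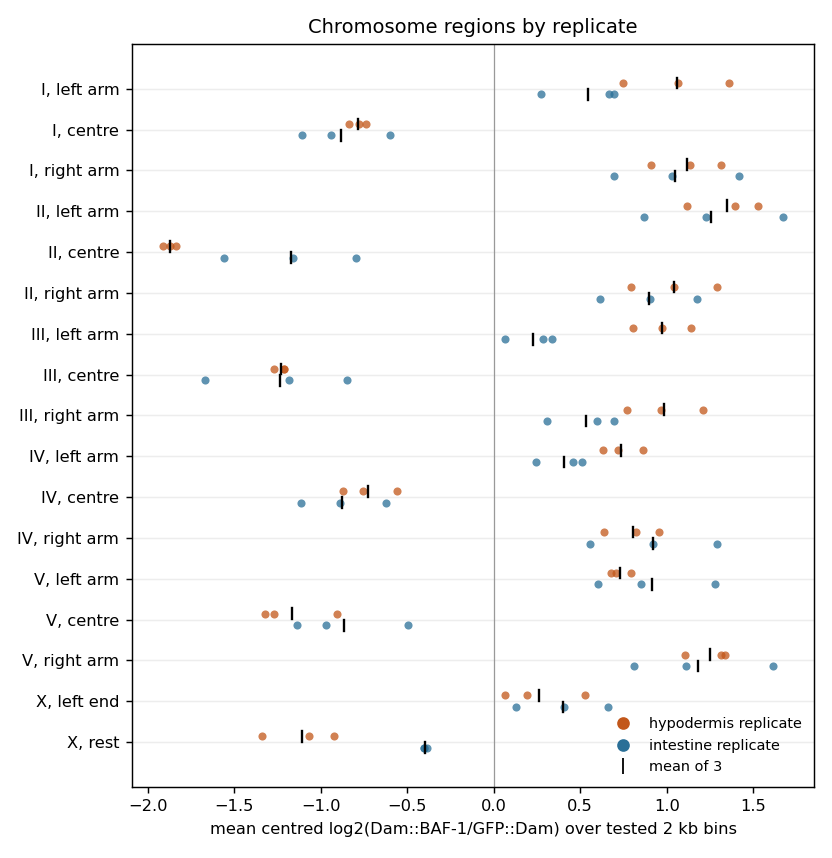
Mean centred log2(Dam::BAF-1/GFP::Dam) over tested 2 kb bins for arms and centres of the autosomes and for the first 4 Mb (left end) and the rest of X. Points are replicate columns and black lines are means of 3. The columns of the tissues separate in the centre of II, X beyond its left end, the left arms of I, III and IV and the right arm of III.

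In 100 kb windows the difference was tested with limma. Of 961 windows, 335 passed (34.9%), with 155 (16.1%) higher in the hypodermis and 180 (18.7%) higher in the intestine. At the scale of 2 kb, 3288 of 32322 bins passed (10.2%), 1411 (4.37%) and 1877 (5.81%) in these directions. Without hypodermis replicate 2 the windows numbered 79 and 101, and without intestine replicate 3 they numbered 183 and 210, unlike the gene calls. With the deposited centring they numbered 251 and 101, and the bins 2431 and 1193. Without the filter the bins numbered 1342 and 1031. Without intestine replicate 3 the bins numbered 65 and 273, and without hypodermis replicate 2 or intestine replicate 2 they numbered 480 and 878, and 876 and 1227. X held 62 windows higher in the intestine and 5 higher in the hypodermis of 176. In the centre of II the numbers were 27 and 1 of 72. On III they were 14 and 38 of 130, and on I 12 and 35 of 149. Called genes and windows mostly went together: of 618 called protein-coding genes higher in the intestine within tested windows, 442 (71.5%) lay in windows called the same way and 4 in windows called the opposite way, and of 795 higher in the hypodermis 525 (66.0%) and 3. Of all 15687 tested protein-coding genes within tested windows, 16.8% lay in windows higher in the intestine and 16.9% in windows higher in the hypodermis. Genes are part of their windows, so these shares are a description.

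**Figure D4:**
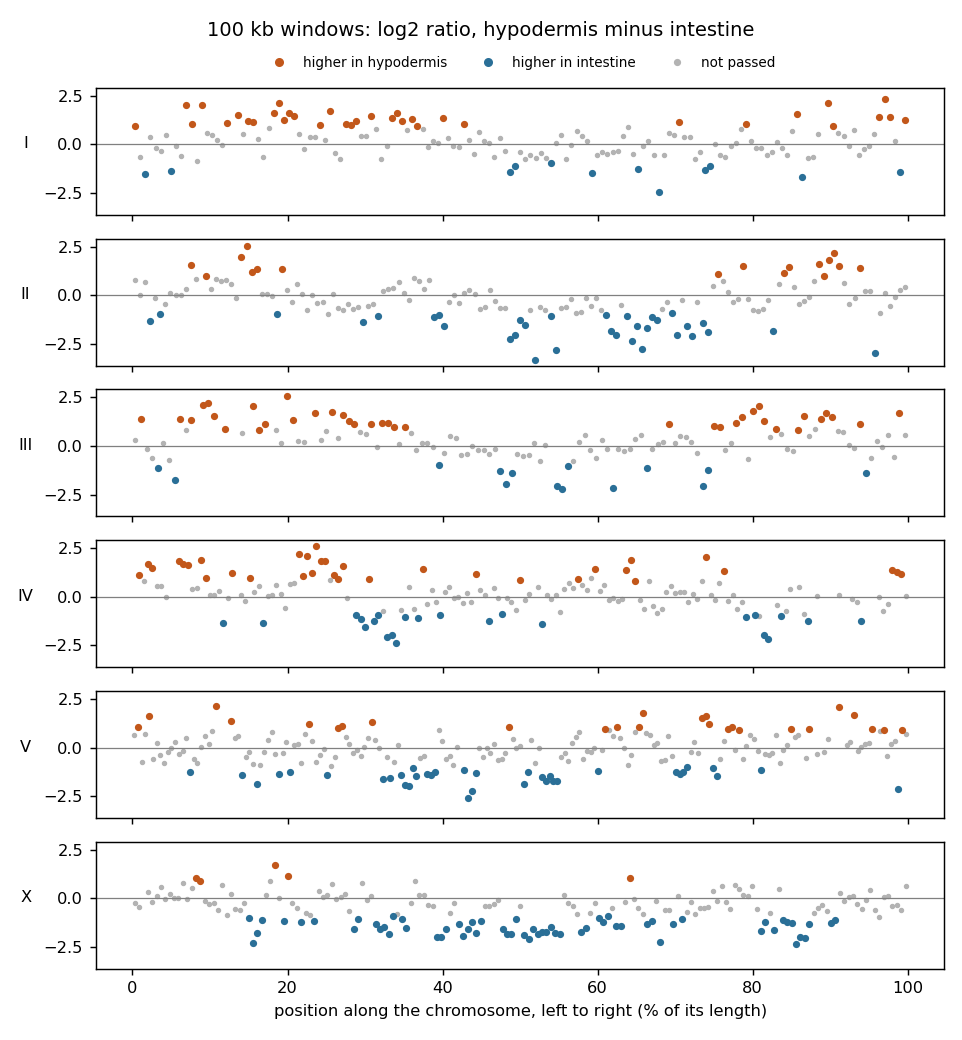
Difference (hypodermis minus intestine, log2 units) of 100 kb windows along each chromosome, plotted against position in percent of its length. Orange and blue points passed at an adjusted p below 0.05. Blue points, higher in the intestine, number 62 on X and 27 in the centre of II, and orange points, higher in the hypodermis, number 38 on III.

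The window with the smallest p lay in the centre of II at chrII:7900001-8000000, with -2.38, -3.39 and -2.87 in the hypodermis against -0.32, 0.55 and 1.09 in the intestine (-3.32 ± 0.38, adjusted p = 4.6e-05). It contains the RhoGAP gene spv-1 among 4 called of 9 tested protein-coding genes. The window of eff-1 and col-77, chrII:8300001-8400000, had -2.18, -3.06 and -2.12 against 0.086, 0.24 and 0.71 (-2.80 ± 0.35). On the right arm of II, chrII:14600001-14700000 held unc-52, the perlecan of basement membranes, and was at -0.32, -0.51 and -0.11 in the hypodermis against 1.95, 2.54 and 3.4 in the intestine (-2.94 ± 0.37). All 3 windows were selected for small p-values, and each had every intestine column above every hypodermis column.

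In the hypodermis direction, chrIV:4100001-4200000 had 1.78, 2.08 and 1.22 in the hypodermis against -0.71, -0.53 and -1.52 in the intestine (2.61 ± 0.35, adjusted p = 1.1e-04), and 17 of its 26 tested protein-coding genes were called. Close by, chrIV:3900001-4000000 held the called lectin genes clec-67, clec-68, clec-71, clec-72, clec-73 and clec-78 and differed by 2.12 ± 0.31. The window chrIII:1300001-1400000 held fbxa-15, fbxa-19, fbxa-79 and fbxa-80 and differed by 2.21 ± 0.32. On II, chrII:2200001-2300000 was at 1.57, 2.08 and 1.26 against -0.60, -0.73 and -1.36 (2.53 ± 0.34). These 4 windows, also selected for small p-values, were above 0 in every hypodermis column and below 0 in every intestine column.

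Called windows next to each other in the same direction formed 16 runs of at least 4, of which 12 were higher in the intestine and 6 of those lay on X. Runs were selected for their direction and contain the genes counted in them, so these gene counts are a description. Over all tested protein-coding genes, 5.08% were higher in the hypodermis and 3.89% higher in the intestine. The longest, chrX:8900001-9800000, spans 900 kb and averaged -1.18, -1.66 and -1.15 in the hypodermis columns and 0.18, 0.34 and 0.79 in the intestine columns. It holds gpa-12, and 21 of its 92 tested protein-coding genes were called, all in the intestine direction. chrII:9700001-10400000 spans 700 kb with means of -1.41, -1.37 and -1.37 against 0.15, 0.23 and 0.54 and 29 called genes, among them unc-4, pax-3, die-1 and daf-19, which encode transcription factors, and the chitinase-like genes chil-5 to chil-9. chrV:11000001-11500000 holds nlp-33, col-155, col-156 and grl-7 and 24 called genes of 90. chrV:7200001-7700000, with 25 called of 124, was above 0 in both tissues (0.33, 0.65 and 1.21 and 1.75, 2.13 and 2.98) and holds nhr-147 and other nuclear receptor and chemoreceptor genes.

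The 4 runs in the hypodermis direction lay on I, II and IV. chrIV:3700001-4400000 spans 700 kb, with means of 1.15, 0.94 and 0.58 in the hypodermis against -0.81, -0.68 and -1.37 in the intestine, and 48 of 128 tested protein-coding genes were called. chrI:2700001-3200000 had 1.15, 1.03 and 0.58 against -0.71, -0.40 and -0.97 with 24 of 77 genes, chrII:2100001-2500000 had 24 of 70 and chrII:13500001-14000000 had 20 of 74. In none of these 4 was a protein-coding gene called in the other direction, which is largely set by the selection of the runs.

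Around single genes the extent of the difference varied, as the profiles of 2 kb bins within 20 kb of 4 gene starts show. At eff-1, 12 of 15 tested bins were higher in the intestine, from -13.7 to 14.3 kb relative to the start. At nlp-31, 6 of 16 tested bins passed, from -1.05 to 12.9 kb, and the bins farther upstream differed by -0.43 to -1.78 and did not pass. At asp-15, 5 of 12 tested bins were higher in the hypodermis. At act-5, 3 of 15 were higher in the hypodermis and 2, located 7.07 and 15.1 kb after the start, were higher in the intestine.

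**Figure D5:**
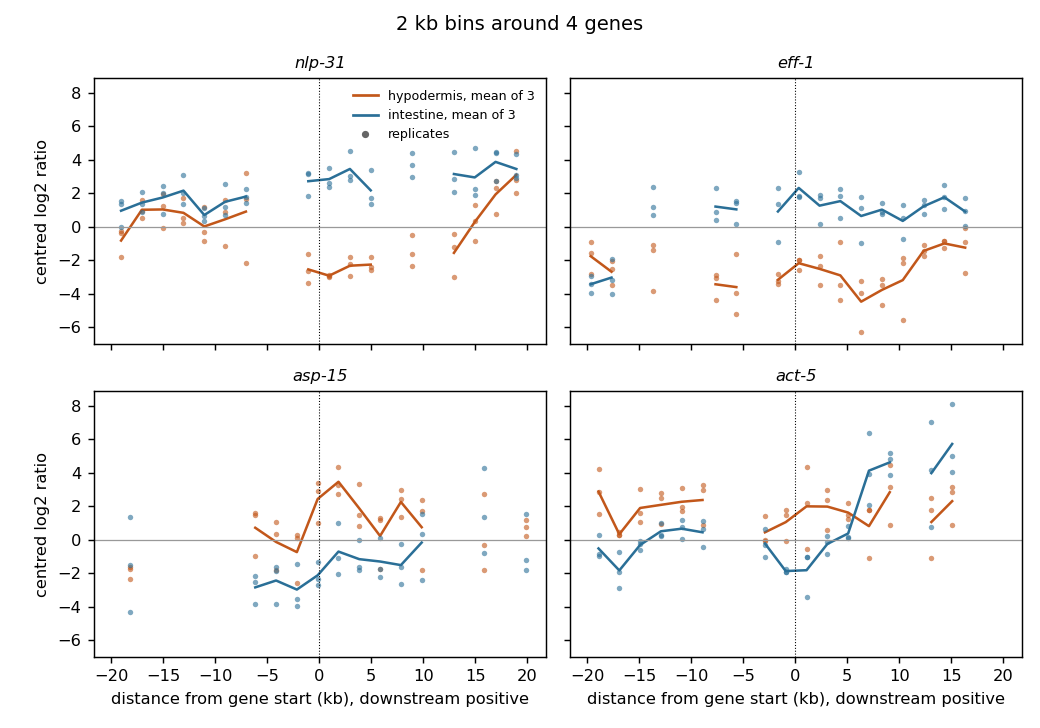
Centred log2 ratio of tested 2 kb bins against distance from the gene start (kb, downstream positive) for nlp-31, eff-1, asp-15 and act-5. Points are replicate columns and lines are means of 3, broken where a bin was not tested. The intestine lies above the hypodermis at nlp-31 and eff-1 and below it at the starts of asp-15 and act-5.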

How the data were processed

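Wild-type DamID tables for genes and 2 kb bins were analysed. The authors counted adapter-bearing reads at GATC sites of ce11 with their RDamIDSeq pipelines, over bins and over genes extended by 500 bp. Per replicate, the deposited log2 ratio is the relative read number of fusion over GFP::Dam after a pseudocount of 1, minus its mean over all features. The deposited adjusted p-value came from the authors' DESeq2 test of fusion against GFP::Dam. It served only to mark tested features in an alternative, and the authors' average was not used. The sources used here do not give the aligner.

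Genes were named from the Ensembl 115 annotation of WBcel235 (99.8% of identifiers matched). A feature entered where no column was at its most frequent value, and columns were centred on the median of those features. Windows of 100 kb held the mean of at least 20 of 50 tested bins. limma 3.58.1 in R 4.3.3 (lmFit and robust eBayes, tissue as the only term, two-sided, Benjamini-Hochberg over all features of a fit) was tested on simulated data first. Regions used exact permutation of columns, with autosome arm borders from the study's methods and X divided at 4 Mb, since the border given for X lies beyond its end. Gene lists were written from knowledge of the tissues and are described by counts and medians without a test. The comparison, members and lists were chosen with earlier results of these data known. Named genes were the 10 with the smallest p-values per direction at least 10 kb apart, the extreme members of lists, and a fixed set. Neighbouring list members, and genes of a window or run, were added after their values were seen. Alternatives changed the filter, centring, column scale, moderation, array weights, replicate block and gene classes or left out a column. A minimum of 5 GATC sites and the removal of the GATC trend (column medians subtracted within each number of sites, up to 30) were added after seeing the data. The 4 tables of the mutant were not used.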

Additional observations from a re-analysis of the deposited data

Results flagged for a closer look

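Features whose log2 ratio of Dam::BAF-1 over GFP::Dam differed between the 3 hypodermis and the 3 intestine columns by limma numbered 1054 genes, 1411 bins and 155 windows in the hypodermis direction. In the intestine direction they numbered 1564 genes, 1877 bins and 180 windows. Among the called genes, some had all columns above the column median in one tissue and all below it in the other. Of these, 739 were above it in the intestine and 600 above it in the hypodermis, counts made among genes selected for a large difference. No value was singled out for a column far from the others, since groups of 3 are too small for that test.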

How the results depend on the processing

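Gene calls are given here as higher in the hypodermis and higher in the intestine. With the deposited centring they were 2970 and 671 genes, 2431 and 1193 bins, and 251 and 101 windows. Array weights, whose estimation did not converge fully, gave 3507 and 4509 genes, 3594 and 4347 bins, and 289 and 335 windows. Without the filter there were 540 genes and 1031 bins higher in the intestine and 98 windows higher in the hypodermis, the other directions being within 1.5 times. A common scale of columns gave 249 and 293 windows. Both alternatives on GATC sites, chosen after seeing the data, left gene and bin counts within 1.5 times, and at least 5 sites gave 88 windows higher in the hypodermis. The members changed more than the counts. With at least 5 sites, 752 of 756 and 763 of 1474 called genes were also called without that limit. With the trend removed, 629 of 890 and 1085 of 1375 were also called with the trend kept. Leaving out a column gave 0 to 1332 and 0 to 2074 genes, 65 to 1560 and 273 to 2172 bins, and 79 to 189 and 101 to 241 windows. The cause was not tested. Of 67 named genes that passed, 67 lost the call without intestine replicate 3, 41 lost it only there, 26 lost it under 2 or more alternatives, and none changed sign.

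Regional differences that changed sign were all among those whose tissue ranges overlapped, except II and IV taken whole. With the deposited centring they were II whole (0.12), V whole (0.27), the right arm of IV (0.28), the centre of V (0.10), the left arm of V (0.21), the left end of X (0.26) and the autosomal centres (0.22). Without the filter they were IV whole (-0.017) and the right arm of V (-0.0072). A common scale turned the centre of III (-0.10), at least 5 sites turned the right arm of I (-0.036), the centre of III (-0.040) and the right arm of V (-0.016), and the removed trend turned the centre of III (-0.094). Leaving out a column gave -0.013 to 0.24 in the centre of I, -0.11 to 0.25 in the right arm of I, -0.10 to 0.30 in the left arm of II, -0.22 to 0.20 in the centre of III, -0.30 to 0.070 in the right arm of IV and -0.11 to 0.29 in the right arm of V.

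Median differences of lists moved by more than the spread of their columns without the filter (hypodermal genes -1.24, antimicrobial peptides -2.24, C-type lectins 1.28, F-box genes 1.29) and with the deposited centring (-1.22, -2.23, 1.3 and 1.3). The peptides also moved with array weights (-3.56) and at least 5 sites (-3.77). Among named genes that did not pass, glo-3 changed sign without the filter (0.42), with the deposited centring (0.43), with array weights (1.54) and without a column (-1.31 to 1.23). nhx-2 changed sign with the authors' adjusted p-value present (-0.037), a common scale (-0.39), array weights (-0.45), without piRNA genes (-0.16), at least 5 sites (-0.32) and the removed trend (-0.23), and vit-2 without the filter (0.66), with the deposited centring (0.67) and with array weights (0.072). Without a column they ran from -0.75 to 0.56 and from -0.52 to 0.54.

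Replicate numbers did not pair the columns: deviations from the tissue means of same-numbered columns correlated at -0.10, -0.02 and 0.03 over genes, and hypodermis replicate 1 correlated best with intestine replicate 2 (0.15). A fit with the replicate block gave 843 and 1358 genes, 1246 and 1749 bins, and 180 windows higher in the intestine, and the calls of nhr-23, ilys-6, baf-1 and unc-84 were lost. Exact sign-flip over 3 pairs cannot go below p = 0.25. Precision is limited by 3 columns per tissue.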

Other observations

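Genes known from other tissues were read as well. Of 26 germline genes, 2 passed in the hypodermis direction (7.69%, beside 4.08% of all genes). One of them was htp-1, a chromosome axis protein of meiosis, with 1.78, 0.88 and 0.88 in the hypodermis against -1.77, -1.64 and -3.22 in the intestine (3.39 ± 0.77, adjusted p = 0.0142). Of 12 muscle genes, 1 passed (8.33%), the tropomyosin gene lev-11 (2.81 ± 0.78, not passing with the GATC trend removed, adjusted p = 0.069), with a list median of 1.38. In the intestine direction were unc-47, the vesicular GABA transporter, with 0.64, 0.60 and 0.18 in the hypodermis against 2.41, 3.98 and 4.31 in the intestine (-3.09 ± 0.77), and the neuropeptide gene flp-8 on X with -2.34, -2.84 and -1.56 against 1.68, 2.14 and 2.95 (-4.50 ± 0.76). Among 32 histone genes 4 passed in the hypodermis direction, led by his-59 (3.48 ± 0.83), but these are near-identical copies that share reads, and 10 passed with the GATC trend removed and 1 among genes with at least 5 sites. In the remaining lists the calls were few: 1 of 20 neuronal genes, 2 of 26 FMRFamide-like peptide genes and 1 of 27 insulin-like peptide genes in the intestine direction, 1 of 21 major sperm protein genes in the hypodermis direction, and 1 of 48 ceh homeobox genes in each direction. Over all tested genes, 4.08% passed in the hypodermis direction and 6.06% in the intestine direction, and over protein-coding genes 5.08% and 3.89%.

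Single bins of 2 kb reached larger differences than genes. The bin chrII:4394001-4396000 in the moulting peroxidase gene mlt-7 had -5.23, -4.75 and -3.83 in the hypodermis against 1.34, 2.69 and 2.04 in the intestine (-6.63 ± 0.83, adjusted p = 1.7e-04). The bin chrV:5412001-5414000 in F08F3.4 differed by -6.84 ± 0.88. In the other direction, chrIV:3792001-3794000 in glct-6 had 2.56, 4.77 and 1.89 against -1.70, -1.67 and -3.53 (5.37 ± 0.90, adjusted p = 9.5e-04), and chrI:12946001-12948000 in the acyl-CoA oxidase genes acox-1.2 and acox-1.3 differed by 4.92 ± 0.87.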
